A study of Mus musculus with 9 samples.

Results

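Gene expression in sorted mouse bone marrow cells that carried a retroviral vector with wild-type IDH1 (IDH1wt) was compared with that in cells carrying the empty vector (CTL). The comparison used 6 of the 9 arrays of the series, 3 labelled IDH1wt and 3 labelled CTL, and covered all 17731 genes for which a probe set carried a single gene symbol. Both groups came from bone marrow cells of strain C57BL6 that HoxA9, a homeobox protein that blocks myeloid differentiation and serves as an oncogene in leukemia models, had made immortal. CTL cells carried the pSF91 vector with EGFP alone, and IDH1wt cells carried pSF91 with IDH1 and EGFP joined by an internal ribosome entry site. The cells were injected into irradiated syngeneic recipients, and 4 weeks later GFP-positive cells were sorted from the bone marrow, so what was profiled is whatever carried the vector and stayed in the marrow. The other 3 arrays (IDH1mut) carried mutant IDH1 in the same setting and are used only to fit the spread and to show where a gene's level differed between the IDH1 vectors. Not stated in the labels are the species of the inserted IDH1, the vector's integration sites and whether each array stands for a separate mouse. The p-values below measure only the spread between arrays, 3 per group. That spread was estimated from all 9 arrays, IDH1mut included, and in part shared across genes.

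IDH1 is the cytosolic, NADP-dependent isocitrate dehydrogenase: it converts isocitrate to 2-oxoglutarate and makes NADPH, which feeds lipid synthesis and glutathione reduction. 2-oxoglutarate in turn is the co-substrate of the TET and JmjC dioxygenases that demethylate DNA and histones. Cancer mutants of the enzyme turn 2-oxoglutarate into 2-hydroxyglutarate, while the wild-type enzyme does not gain that reaction. The comparison here sets cells labelled with the wild-type vector against cells labelled with the empty vector. The amount of enzyme was not measured. Chaperone and immediate early genes were among those that fell most, and their controls are well known. The heat shock factor HSF1 binds inverted GAA repeats ahead of the inducible chaperone genes, and serum response factor, CREB and AP-1 drive the immediate early genes, which are switched on within minutes of a growth or stress signal.

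Hspa1a and Hspa1b showed the largest falls of all genes, and Jun and Zfp36 were immediate early genes that fell. The bases ahead of the start of these genes are shown because, of the chaperone and immediate early genes that fell, these held a motif that was searched for. They come from the RefSeq table for GRCm38.p6, cover the 250 bases before each start, and lie at chr17:34972157-34972406 (Hspa1a), chr17:34959239-34959488 (Hspa1b), chr4:95052223-95052472 (Jun) and chr7:28379229-28379478 (Zfp36), all on the minus strand. Capitals mark an HSF1-type repeat, GAANNTTC, in the first 3 and a CArG box, the core of the serum response element, in Zfp36.
Hspa1a: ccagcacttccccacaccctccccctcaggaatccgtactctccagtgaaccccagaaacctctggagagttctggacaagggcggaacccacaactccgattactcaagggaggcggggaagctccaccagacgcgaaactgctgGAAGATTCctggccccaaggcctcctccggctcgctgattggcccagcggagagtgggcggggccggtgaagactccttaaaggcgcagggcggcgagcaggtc
Hspa1b: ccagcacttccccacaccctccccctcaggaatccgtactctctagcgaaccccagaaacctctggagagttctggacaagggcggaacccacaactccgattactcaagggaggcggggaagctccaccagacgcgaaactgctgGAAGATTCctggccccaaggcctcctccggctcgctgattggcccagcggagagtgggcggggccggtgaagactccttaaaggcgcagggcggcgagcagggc
Jun: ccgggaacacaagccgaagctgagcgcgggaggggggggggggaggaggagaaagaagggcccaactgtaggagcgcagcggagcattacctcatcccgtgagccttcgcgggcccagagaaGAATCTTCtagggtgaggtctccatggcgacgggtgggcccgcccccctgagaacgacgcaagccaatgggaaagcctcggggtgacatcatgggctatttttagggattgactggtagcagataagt
Zfp36: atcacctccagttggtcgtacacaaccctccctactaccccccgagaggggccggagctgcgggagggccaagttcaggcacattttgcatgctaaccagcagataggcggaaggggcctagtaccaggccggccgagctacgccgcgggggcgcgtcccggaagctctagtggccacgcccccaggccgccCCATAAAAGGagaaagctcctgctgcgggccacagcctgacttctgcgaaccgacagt
The repeat reads GAAGATTC from base 104 to 97 before the start in both Hspa1 genes, whose windows differ at 3 of 250 bases (98.8% identical). In Jun it reads GAATCTTC from base 128 to 121, and the CArG box of Zfp36 reads CCATAAAAGG from base 58 to 49. Both strands were searched for GAANNTTC, TTCNNGAA (the same repeat in the other orientation), TGACGTCA (cyclic AMP response element), TGANTCA (AP-1 site) and the CArG box. These were held by 6.69%, 7.17%, 1.55%, 6.75% and 1.47% of 32851 RefSeq promoters of the same length. Fos, Fosb, Ier5 and Ier3 held none of these letters in the window, and Hspa8, Egr1 and Ier2 had no entry. Among all genes that fell, 7 of the 98 with an entry (7.14%) held GAANNTTC, next to 6.6% of the 14114 tested genes with an entry. A match is a description of the letters only.

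The arrays were alike in scale, which follows from RMA, since it makes the arrays' distributions equal. Array medians lay between 4.65 and 4.72 on the log2 scale and upper quartiles between 6.91 and 7.0, and values ran from 1.72 to 14.2. Arrays correlated over genes at 0.9948 to 0.9967 within CTL, 0.9917 to 0.9949 within IDH1wt and 0.9894 to 0.9917 between the groups. The number of arrays, 3 per group, limits the precision. RMA gives no detection call, and differences between low values are compressed. The median CTL level was 11.5 over 18 late neutrophil genes, 10.7 over 13 primary granule genes and 8.85 over 17 monocyte genes, and 4.05 over 21 T and NK cell genes and 3.67 over 18 stroma and endothelium genes; these lists rest on different probe sets, and their levels give no shares of cells. An array stood apart in each group. IDH1wt replicate 1 was low for erythroid genes and CTL replicate 2 was high for B cell genes, with values given below, and counts of list members that differ without either array are given with the lists.

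Mouse Idh1 read 10.70, 10.64 and 10.67 (log2) on CTL replicates 1, 2 and 3 and 10.70, 10.45 and 10.61 on IDH1wt replicates 1, 2 and 3. The groups overlapped, and the difference was -0.09 ± 0.11 (SE; limma, adjusted p = 0.733). No higher level from the vector was seen at this probe set, and whether the insert holds the probed stretch is not given. Idh2, the mitochondrial counterpart, differed by -0.19 ± 0.10 (adjusted p = 0.343). Hoxa9 read 3.82, 3.89 and 3.50 in CTL and 4.21, 3.73 and 3.71 in IDH1wt (0.15 ± 0.14, adjusted p = 0.655), below the array median, and its partner Meis1 differed by 0.02 ± 0.16 (adjusted p = 0.963). The labels were therefore not checked by the level of either introduced gene.

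Between IDH1wt and CTL cells 414 of 17731 genes (2.33%) changed at an adjusted p under 0.05, 288 higher (1.62%) and 126 lower (0.711%). At an unadjusted p under 0.05 there were 3017 genes (17.0%), 1461 higher and 1556 lower, so the excess of rises was seen among called genes only: 69.6% of them rose, while 41.5% of all genes lay above 0 and the median difference over all genes was -0.04. The 3 IDH1wt arrays lay wholly above the 3 CTL arrays for 1898 genes (10.7%) and wholly below for 2293 (12.9%), and every one of the 414 called genes was among them. The median rise was 0.72 and the median fall -0.67, and the smallest differences called were 0.38 and -0.39. At least 2-fold changes were called for 83 genes (0.468%), 50 higher and 33 lower, of 102 genes that differed that much at any p. At least 4-fold differences numbered 23, 12 higher and 11 lower, and all were called. Called genes were brighter than most: the median level over arrays was 6.19 for rises and 5.75 for falls, next to 4.94 for all genes. Across fits that left out each array in turn, 102 of the 414 genes kept their call in all 6, 66 higher and 36 lower, and 58 of these had changed at least 2-fold. The count itself went from 132 (without CTL replicate 1) to 570 (without IDH1wt replicate 1), with 145 without CTL replicate 3 or IDH1wt replicate 3 and 211 without IDH1wt replicate 2.

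**Figure D1:**
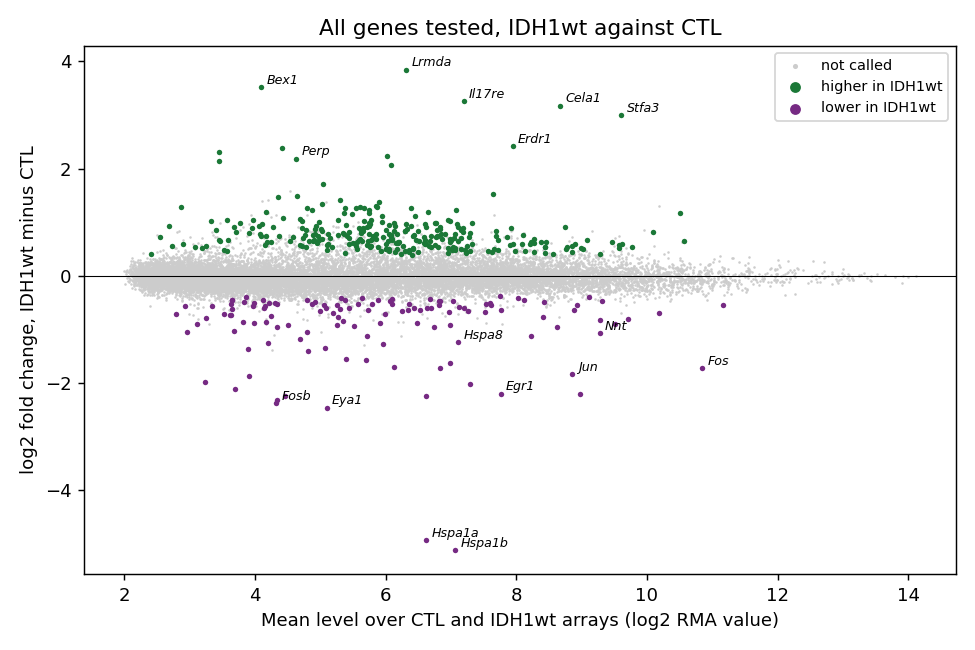
Each point is 1 of 17731 genes, with its mean log2 level over the CTL and IDH1wt arrays on the x axis and the log2 difference IDH1wt minus CTL on the y axis; called genes are coloured by direction (288 higher, 126 lower). Hspa1b and Hspa1a lie alone at the bottom near -5, and the largest rise, Lrmda, lies at 3.84.

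The inducible chaperone genes of the Hspa1 pair were by far the most reduced. Hspa1b, a stress-induced chaperone of the Hsp70 class, read 9.46, 9.64 and 9.78 (log2) on the CTL arrays and 3.91, 5.15 and 4.44 on the IDH1wt arrays. All CTL arrays were in the upper part of the scale and all IDH1wt arrays near the array median, a gap far wider than the spread within either group. Its level fell by 5.13 ± 0.28 (SE; adjusted p = 6.55e-06), or 34.9-fold. Hspa1a, which encodes a nearly identical protein, read 9.03, 8.98 and 9.26 in CTL and 4.01, 4.56 and 3.88 in IDH1wt and fell by 4.94 ± 0.20 (30.8-fold, adjusted p = 7.79e-07). Since the copies are nearly the same in sequence, how their signals divide is uncertain, and they lie next to each other in the order of measured genes on chromosome 17. Hspa8, the constitutive member of the class, read 7.83, 7.58 and 7.78 in CTL and 6.40, 6.64 and 6.41 in IDH1wt. Its groups did not overlap either, and it fell by 1.25 ± 0.13 (adjusted p = 0.000667).

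The rest of the heat shock list did not move with these 3 genes. Of 23 measured chaperone and HSF1 target genes, 3 fell and 0 rose (13% called, next to 2.33% of all genes). At an unadjusted p under 0.05 there were 4 lower and 1 higher. The list's median difference was -0.07, next to -0.04 for all genes. Among members named after their values were seen, Dnajb1, a co-chaperone of the Hspa1 proteins, read 8.38, 8.36 and 8.33 in CTL and 8.32, 8.26 and 8.29 in IDH1wt (-0.06 ± 0.09, adjusted p = 0.766). Hsp90aa1, an inducible Hsp90 chaperone, differed by -0.11 ± 0.16 (adjusted p = 0.785) and Hspb1 by -0.11 ± 0.11 (adjusted p = 0.648). These 3 are also HSF1 targets, and the part of HSF1 in the falls was not tested. Fkbp4, an immunophilin that works with Hsp90, differed by -0.37 ± 0.12 (adjusted p = 0.142) and Dnajb4 by 0.31 ± 0.14 (adjusted p = 0.289). Of the unfolded protein and ATF4 response, 0 of 27 genes passed the test, with 4 higher and 5 lower at an unadjusted p under 0.05 and a median of -0.11.

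**Figure D2:**
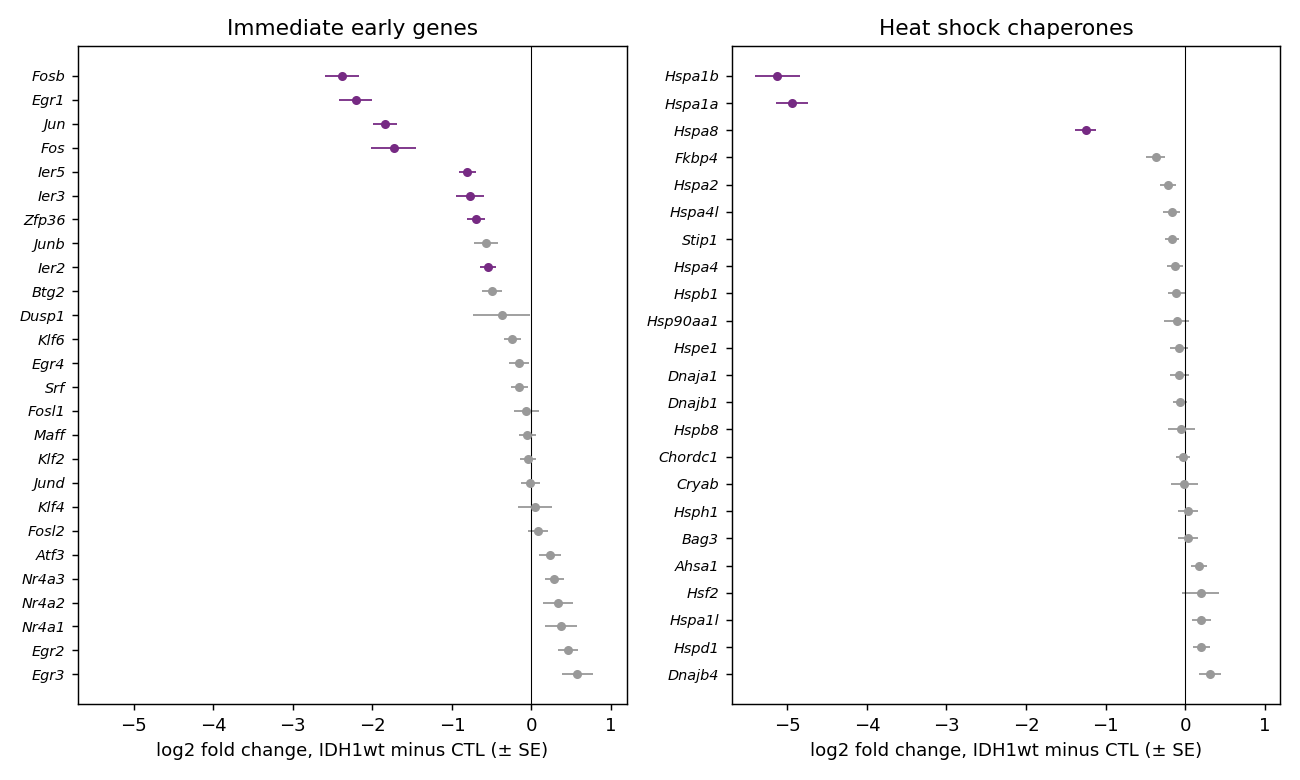
Log2 difference IDH1wt minus CTL (point) with its SE (bar) for the 26 measured immediate early genes (left) and the 23 measured heat shock genes (right), ordered by size; coloured points passed the test. Hspa1b and Hspa1a lie near -5 and Hspa8 at -1.25, while the other 20 heat shock genes lie within 0.37 of 0, and the 8 coloured immediate early genes run from -2.38 (Fosb) to -0.54 (Ier2).

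Immediate early genes were the other group with several falls. Of 26 measured members 8 fell and 0 rose (30.8% called, next to 2.33% of all genes, or 0.711% for falls alone). The list was chosen with earlier results of these data known, so its share is a description only. At an unadjusted p under 0.05 there were 11 lower and 3 higher. The list's median was -0.16. Fosb, an AP-1 subunit, read 5.82, 4.99 and 5.73 on the CTL arrays and 2.93, 3.53 and 2.94 on the IDH1wt arrays. The highest IDH1wt array lay below the lowest CTL array, and the gene fell by 2.38 ± 0.21 (5.22-fold, adjusted p = 0.000206). Egr1, a zinc finger factor induced by serum and stress, read 8.97, 8.66 and 8.96 in CTL and 6.21, 7.04 and 6.72 in IDH1wt, a fall of 2.21 ± 0.21 (adjusted p = 0.000273). Jun, the AP-1 partner of the Fos proteins, read 9.85, 9.61 and 9.87 against 7.99, 7.91 and 7.91. The IDH1wt arrays of Jun lay close together below all CTL arrays, and it fell by 1.84 ± 0.16 (adjusted p = 0.000154). Fos read 11.86, 11.54 and 11.73 in CTL and 9.78, 10.22 and 9.93 in IDH1wt and fell by 1.73 ± 0.28 (adjusted p = 0.0106), a call that was lost without CTL replicate 1 (0.0503) or IDH1wt replicate 3 (0.0506).

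Smaller falls came from genes that stayed bright. Ier5, a regulator of HSF1, read 10.12, 10.12 and 10.10 in CTL and 9.36, 9.39 and 9.17 in IDH1wt and fell by 0.81 ± 0.11 (adjusted p = 0.00375). Ier3 fell by 0.77 ± 0.17 (adjusted p = 0.0454), and its call was lost without any of the 6 arrays (0.0767 to 0.135). The following members were named after their values were seen. Zfp36, whose protein binds AU-rich elements and speeds the decay of inflammatory mRNAs, read 10.49, 10.58 and 10.53 in CTL and 9.73, 9.92 and 9.85 in IDH1wt and fell by 0.69 ± 0.11 (adjusted p = 0.00998). Ier2 fell by 0.54 ± 0.10 (adjusted p = 0.0208). The Ier2 call was lost without CTL replicate 1 (0.0967), CTL replicate 3 (0.0883), IDH1wt replicate 2 (0.058) or IDH1wt replicate 3 (0.0906). Junb read 8.71, 8.80 and 8.69 against 8.01, 8.33 and 8.14, which did not overlap and missed the threshold (-0.57 ± 0.15, adjusted p = 0.0742), and Btg2 differed by -0.50 ± 0.12 (adjusted p = 0.0648). Dusp1, a phosphatase of the MAP kinases, read 10.53, 10.43 and 10.52 in CTL and 9.67, 10.51 and 10.18 in IDH1wt and overlapped (-0.38 ± 0.36, adjusted p = 0.646). Members on the other side of 0 were Egr3 (0.58 ± 0.20, adjusted p = 0.168), Egr2 (0.46 ± 0.13, adjusted p = 0.0929), Nr4a1 (0.37 ± 0.20, adjusted p = 0.382) and Atf3 (0.24 ± 0.14, adjusted p = 0.419). The list's lower calls numbered 5 without CTL replicate 1, 6 without CTL replicate 3 and 5 without IDH1wt replicate 3, and 7 lower with 1 higher without IDH1wt replicate 1.

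The other large falls were spread over unrelated functions. The 20 largest falls ran from -5.13 to -1.56, with adjusted p from 7.79e-07 to 0.033, and the narrowest gap between the groups was 0.73. Since only genes without overlap were picked, some gap was bound to be there. Only 1 of these genes lay below the array median in CTL, and 10 did in IDH1wt. Eya1, a transcriptional co-activator and phosphatase, read 6.53, 5.95 and 6.52 in CTL and 3.67, 4.10 and 3.83 in IDH1wt and fell by 2.47 ± 0.22 (adjusted p = 0.000179). H60c, a ligand of the NK cell receptor NKG2D, read 5.36, 6.18 and 5.22 against 3.17, 3.22 and 3.62 and fell by 2.25 ± 0.22 (adjusted p = 0.000375). It was the only 1 of 4 measured NKG2D genes that passed (25% called, next to 2.33% of all genes). Crhbp, which binds corticotropin-releasing hormone and is also known as a marker of early blood progenitors, read 5.60, 5.05 and 5.83 against 2.98, 3.46 and 3.10. Its groups did not overlap and it fell by 2.31 ± 0.27 (adjusted p = 0.00142). Myl10, a myosin light chain, was bright in both groups, at 10.45, 9.33 and 10.47 in CTL and 7.98, 7.83 and 7.80 in IDH1wt, and fell by 2.21 ± 0.27 (adjusted p = 0.00167). Wdfy1, an adaptor of Toll-like receptor signalling in endosomes, read 8.18, 8.21 and 8.50 against 6.23, 6.31 and 6.31 and fell by 2.01 ± 0.16 (adjusted p = 9.86e-05).

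Among enzymes and signalling genes, Aoc1, the diamine oxidase that degrades histamine, was tight in both groups. It read 6.20, 6.17 and 6.15 in CTL and 4.61, 4.60 and 4.65 in IDH1wt and fell by 1.56 ± 0.17 (adjusted p = 0.000696). Gstt2, a glutathione transferase, fell by 1.57 ± 0.13 (adjusted p = 0.000154), Pde4d, a cyclic AMP phosphodiesterase, fell by 1.88 ± 0.23 (adjusted p = 0.00167) and Ptprg, a receptor tyrosine phosphatase, fell by 1.99 ± 0.17 (adjusted p = 0.000148). The IDH1wt values of Ptprg, 2.32, 2.07 and 2.35, were near the lowest on the arrays, so its difference is compressed. Dyrk3, a kinase of erythroid progenitors and stress granules, read 7.29, 6.28 and 7.36 in CTL and 4.98, 5.56 and 5.28 in IDH1wt and fell by 1.71 ± 0.25 (adjusted p = 0.00597). Tctex1d1, of a dynein light chain family, fell by 1.63 ± 0.19 (adjusted p = 0.00131), and the pseudogene Pisd-ps3 fell by 2.24 ± 0.21 (adjusted p = 0.000302). The calls of Clca1 and Dsp were lost in most fits that left out 1 array. Clca1, a secreted protein of the chloride channel regulator family, fell by 2.12 ± 0.41 (adjusted p = 0.0212), and was not called without CTL replicate 1 (0.0964), CTL replicate 3 (0.0655), IDH1wt replicate 2 (0.077) or IDH1wt replicate 3 (0.0713). Dsp, the desmosomal protein desmoplakin, fell by 1.72 ± 0.36 (adjusted p = 0.033) and kept its call only without IDH1wt replicate 1, with 0.071 to 0.12 without any other array. CTL replicate 2 was the lowest CTL array for 16 of the 20 largest falls and for 69 of all 126, and without that array 102 genes fell, next to 42 without CTL replicate 1 and 41 without CTL replicate 3. The part of CTL replicate 2 in the sizes of the falls was not tested.

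**Figure D3:**
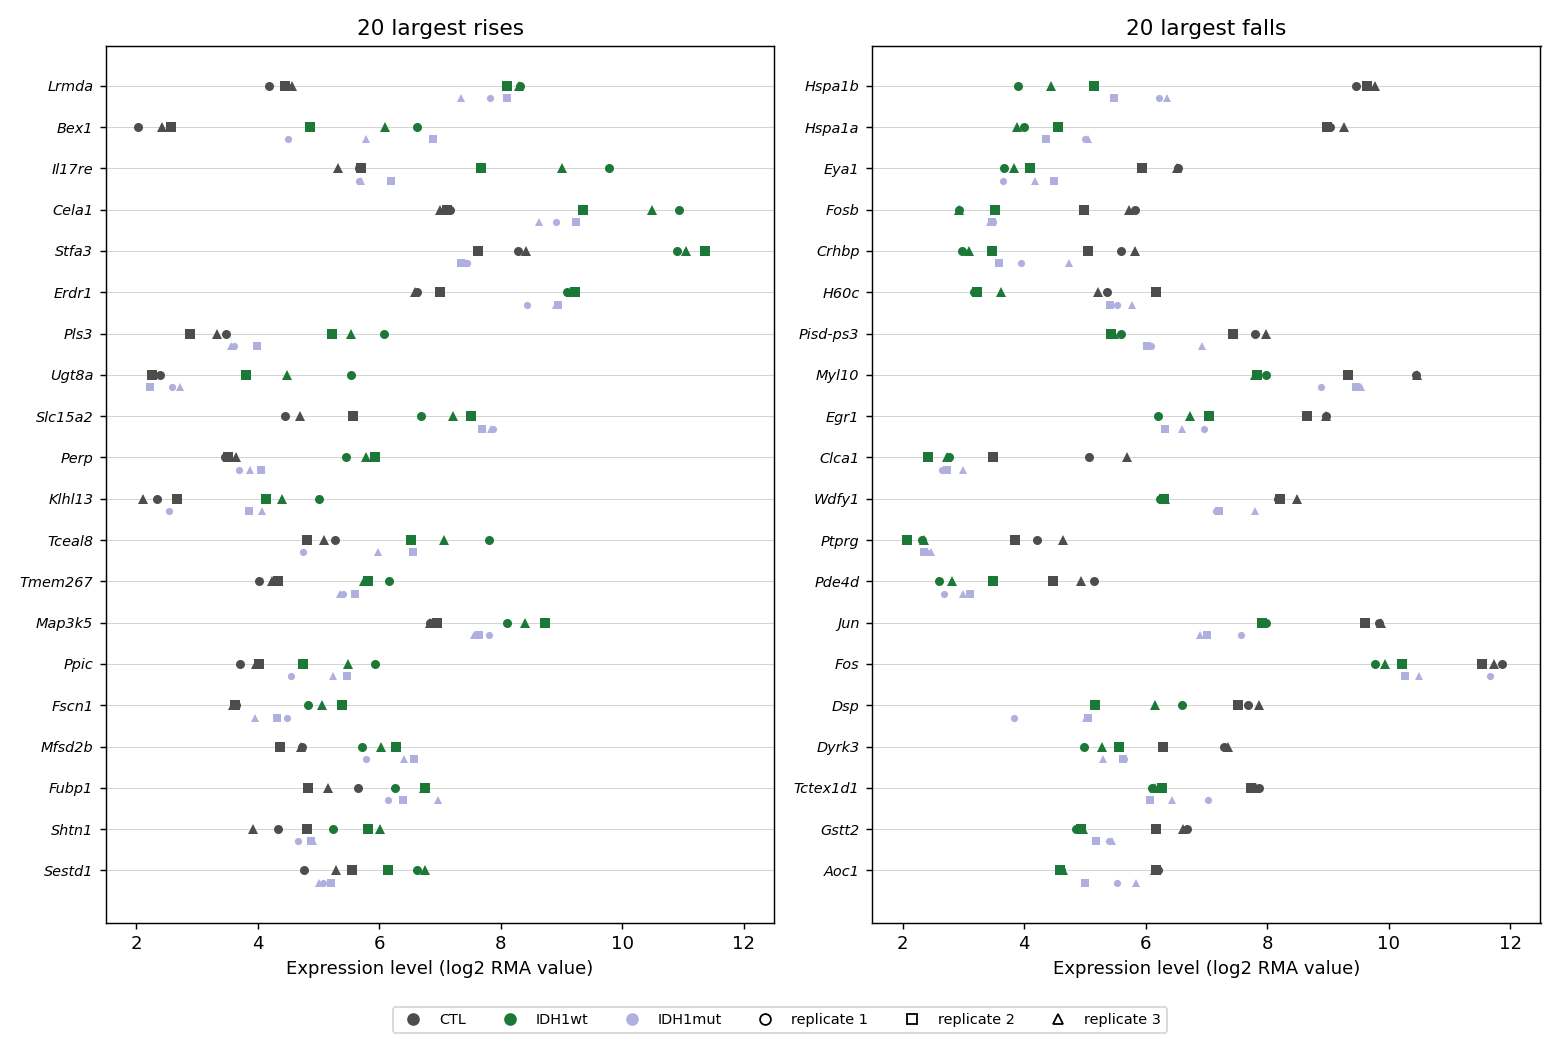
Log2 level on each array (points) of the 20 largest rises and 20 largest falls between CTL and IDH1wt, with the IDH1mut arrays just under them; the marker's shape gives the replicate. Genes were drawn only from called genes whose IDH1wt and CTL arrays do not overlap, so their separation was fixed by the choice. The IDH1mut points of Stfa3 (7.34 to 7.44) lie below those of CTL.

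The largest rise was that of Lrmda, a melanocyte differentiation gene with leucine-rich repeats on chromosome 14. It read 4.18, 4.44 and 4.56 (log2) in CTL and 8.32, 8.10 and 8.29 in IDH1wt, so it moved from below the array median to well above it. It rose by 3.84 ± 0.17 (14.3-fold, adjusted p = 9.53e-07). The 20 largest rises ran from 1.30 to 3.84, with adjusted p from 9.53e-07 to 0.0223, and the narrowest gap between the groups was 0.44. These too were picked among genes without overlap. Of these genes 11 lay below the array median in CTL and 2 did in IDH1wt. Stfa3, a stefin that inhibits cysteine proteases in neutrophils, read 8.29, 7.63 and 8.41 in CTL and 10.90, 11.36 and 11.05 in IDH1wt and rose by 2.99 ± 0.19 (adjusted p = 1.16e-05). Its neighbour Stfa2l1 on chromosome 16 read 9.89, 9.83 and 10.06 against 11.00, 11.18 and 11.10 and rose by 1.17 ± 0.13 (adjusted p = 0.00134). Of 7 measured stefins and cystatins these 2 rose and 0 fell (28.6% called, next to 2.33% of all genes). The stefin genes are a family of close copies, and how far their probe sets share signal was not tested.

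Other large rises differed in how far the arrays spread. Il17re, a receptor chain for interleukin-17C, read 5.67, 5.70 and 5.32 in CTL and 9.78, 7.68 and 9.01 in IDH1wt. The IDH1wt arrays were spread over more than 2 log2 units and all stood above CTL, a rise of 3.26 ± 0.39 (adjusted p = 0.00167). Cela1, an elastase-family serine protease, had the same order of IDH1wt arrays, with 7.16, 7.12 and 6.99 in CTL and 10.94, 9.35 and 10.48 in IDH1wt, and rose by 3.17 ± 0.31 (adjusted p = 0.000373). Slc15a2, a peptide transporter, read 4.44, 5.56 and 4.70 against 6.69, 7.51 and 7.21 and rose by 2.23 ± 0.26 (adjusted p = 0.00141). Ugt8a, which makes galactosylceramide, rose by 2.31 ± 0.32 (adjusted p = 0.00468) from CTL values of 2.39, 2.25 and 2.26, near the bottom of the scale. Mfsd2b, which exports sphingosine 1-phosphate from red cells and platelets, read 4.73, 4.36 and 4.71 against 5.72, 6.28 and 6.03 and rose by 1.41 ± 0.20 (adjusted p = 0.00546). Perp, a tetraspan membrane protein and p53 target, was tight in both groups, with 3.45, 3.52 and 3.64 in CTL and 5.45, 5.93 and 5.79 in IDH1wt, and rose by 2.18 ± 0.14 (adjusted p = 1.16e-05). Map3k5, a stress-activated kinase upstream of JNK and p38, read 6.84, 6.95 and 6.84 against 8.10, 8.73 and 8.39 and rose by 1.53 ± 0.14 (adjusted p = 0.000273).

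Genes on the X chromosome took 5 of the 20 largest rises, at ranks 2, 6, 7, 11 and 12. Bex1, a small adaptor protein expressed in neurons and progenitors, read 2.03, 2.57 and 2.43 in CTL and 6.61, 4.87 and 6.09 in IDH1wt and rose by 3.51 ± 0.53 (adjusted p = 0.00672). Erdr1 read 6.63, 6.99 and 6.59 against 9.09, 9.22 and 9.15, a narrow spread on both sides, and rose by 2.42 ± 0.15 (adjusted p = 1.16e-05). Pls3, an actin-bundling plastin, read 3.47, 2.89 and 3.32 against 6.08, 5.21 and 5.54 and rose by 2.38 ± 0.21 (adjusted p = 0.000219). Klhl13, an adaptor of a ubiquitin ligase, rose by 2.14 ± 0.35 (adjusted p = 0.01, and 0.0521 without CTL replicate 3). Tceal8, which lies next to Bex1 in the order of measured genes, rose by 2.07 ± 0.40 (adjusted p = 0.0223), a call lost without any array other than IDH1wt replicate 2 (0.0505 to 0.0799). In 4 of these 5 genes the order of the IDH1wt arrays was replicate 1, then 3, then 2. Of 9 measured genes of the BEX and TCEAL families 2 rose (22.2% called, next to 2.33% of all genes). Bex4 read 2.98, 3.82 and 3.44 against 4.78, 4.70 and 4.96 without passing (1.40 ± 0.38, adjusted p = 0.0843). Over the whole chromosome 17 of 602 genes rose (2.82%, against 1.62% of all genes) and 2 fell. Of the 50 genes that rose at least 2-fold 7 were X-linked, next to 602 of all 17731 genes tested.

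The remaining large rises were smaller. Fscn1, an actin bundler of cell protrusions, read 3.64, 3.63 and 3.58 in CTL and 4.82, 5.39 and 5.06 in IDH1wt and rose by 1.47 ± 0.16 (adjusted p = 0.000667). Sestd1, a spectrin-domain protein that binds phospholipids, rose by 1.30 ± 0.20 (adjusted p = 0.00701), and Tmem267, a membrane protein of unknown function, by 1.72 ± 0.13 (adjusted p = 7.65e-05). Shtn1, known from axon growth, rose by 1.34 ± 0.22 (adjusted p = 0.0115; 0.0503 without CTL replicate 1, 0.0565 without IDH1wt replicate 3). Fubp1, a DNA-binding activator of MYC transcription, rose by 1.37 ± 0.24 (adjusted p = 0.0146), and its call was lost without CTL replicate 3 (0.0644), IDH1wt replicate 2 (0.057) or IDH1wt replicate 3 (0.0661). Ppic, a cyclophilin, rose by 1.49 ± 0.28 (adjusted p = 0.0195), and its call was lost without CTL replicate 1 (0.0871), CTL replicate 3 (0.0681) or IDH1wt replicate 3 (0.079). The IDH1wt arrays did not play equal parts in the rises: among the 288 genes that rose, IDH1wt replicate 2 was the highest of the 3 for 166, and replicate 1 the lowest for 138.

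Enzymes around isocitrate and 2-oxoglutarate did not pass the test. Of 15 measured isocitrate dehydrogenase and 2-hydroxyglutarate genes 0 were called in limma, with 1 higher and 0 lower at an unadjusted p under 0.05 and a median of -0.05. Of 20 TCA cycle and carboxylase genes 0 were called (2 higher and 0 lower unadjusted, median -0.01). D2hgdh, which oxidises D-2-hydroxyglutarate back to 2-oxoglutarate, read 8.85, 8.84 and 8.93 in CTL and 9.13, 8.84 and 8.95 in IDH1wt (0.10 ± 0.10, adjusted p = 0.673), a gene named after its value was seen. NADPH and lipid genes held 1 called member in each direction of 18 (11.1% called, next to 2.33% of all genes). Nnt, the mitochondrial transhydrogenase that makes NADPH, read 9.76, 9.73 and 9.95 against 8.79, 8.69 and 8.74. The groups stood about 1 unit apart with little spread, and Nnt fell by 1.07 ± 0.12 (adjusted p = 0.00131). Acss2, which makes acetyl-CoA from acetate, read 5.31, 5.25 and 5.29 against 5.90, 6.57 and 6.27 and rose by 0.96 ± 0.16 (adjusted p = 0.01). Of 21 NRF2 and glutathione genes 0 were called, and 0 had an unadjusted p under 0.05 (median 0.02).

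The dioxygenases that use 2-oxoglutarate held 1 rise among 33 genes (3.03% called, next to 2.33% of all genes). They had 2 higher and 4 lower unadjusted and a median of 0.01. Kdm2a, a demethylase of histone H3 lysine 36 that binds CpG islands, read 6.21, 5.99 and 6.03 in CTL and 6.77, 7.15 and 6.82 in IDH1wt and rose by 0.84 ± 0.12 (adjusted p = 0.0039). Tet2, the TET enzyme most often mutated in myeloid leukemia, read 8.35, 8.40 and 8.28 against 8.44, 8.77 and 8.58 and did not pass (0.25 ± 0.12, adjusted p = 0.291, named after its value was seen), and Tet3 differed by -0.50 ± 0.18 (adjusted p = 0.201). Of 25 glycolysis and HIF target genes 1 fell, the angiogenic factor Vegfa, which fell by 0.60 ± 0.11 (adjusted p = 0.0176), and its call was lost without CTL replicate 1 (0.0711), CTL replicate 3 (0.0799) or IDH1wt replicate 3 (0.0626). Of 19 cholesterol genes 1 rose, the epoxidase Sqle (0.48 ± 0.10, adjusted p = 0.0327), and its call was lost without CTL replicate 1 (0.151), CTL replicate 3 (0.118), IDH1wt replicate 2 (0.112) or IDH1wt replicate 3 (0.0669). The glycolysis and cholesterol lists had medians of -0.03 and -0.01, with 4% and 5.26% of members called.

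Cell cycle genes did not pass the test. None of 28 DNA replication genes (median 0.00), 26 mitosis genes (median -0.08) or 14 cyclin and kinase genes (median 0.05) was called in limma. At an unadjusted p under 0.05 these lists held 3 higher and 0 lower, 0 higher and 2 lower, and 3 higher and 0 lower. Without IDH1wt replicate 1, 2 of the replication genes were called higher, Tyms (0.75, adjusted p = 0.0183) and Rrm1 (0.45, adjusted p = 0.0483), which both serve nucleotide supply, and so were 2 of the cyclin genes, Ccnd1 (1.13, adjusted p = 0.0412) and Ccnd3 (0.47, adjusted p = 0.0379). These 4 are named after their values were seen. Among 5 measured CDK inhibitors 1 fell (20% called, next to 2.33% of all genes), and the median was -0.57. Cdkn1b read 4.33, 4.26 and 4.15 in CTL and 3.74, 3.54 and 3.77 in IDH1wt and fell by 0.57 ± 0.12 (adjusted p = 0.0358), a call lost without any array other than IDH1wt replicate 1 (0.0799 to 0.149). Cdkn2a, the locus of p16 and p19 ARF, read 6.51, 5.83 and 6.78 against 5.96, 5.60 and 5.52. The groups overlapped through CTL replicate 2 and IDH1wt replicate 1, and the difference was -0.68 ± 0.21 (adjusted p = 0.122). Without CTL replicate 2 Cdkn2a fell by 0.96 (adjusted p = 0.0139), the only 1 of the 6 fits without an array that called it. Leaving out the lowest CTL array must enlarge a fall. Without IDH1wt replicate 1 the difference was -0.82 and did not pass (adjusted p = 0.0827). Cdkn1a, the p21 gene, differed by -0.44 ± 0.11 (adjusted p = 0.0619), Cdkn1c by -0.86 ± 0.24 (adjusted p = 0.0969) and Cdkn2b by 0.22 ± 0.11 (adjusted p = 0.32).

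The p53 targets, which share Perp with the rises above, held 1 higher and 1 lower of 24 (8.33% called, next to 2.33% of all genes, median -0.09). The lower was Ddit4l, an inhibitor of mTOR signalling, which read 4.27, 3.97 and 4.36 in CTL and 3.42, 3.04 and 3.02 in IDH1wt and fell by 1.04 ± 0.15 (adjusted p = 0.00551). The ERK feedback list held 1 fall of 18, that of Ier3, which the immediate early list also holds (5.56% called, median -0.01). Of 13 BCL2 family genes 1 rose (7.69% called, median -0.13): Bcl2 itself, by 0.79 ± 0.17 (adjusted p = 0.0367), whose call was lost without any array other than IDH1wt replicate 1 (0.06 to 0.141). In limma 0 of 25 NF-kB and inflammatory genes (4 higher and 3 lower unadjusted, median 0.02), 0 of 29 MYC and ribosome biogenesis genes (4 higher and 1 lower, median -0.01) and 0 of 12 Hox-A genes and partners (0 higher and 4 lower, median -0.19) passed. Without IDH1wt replicate 1, 2 NF-kB and inflammatory genes, the cytokine gene Il6 (1.75, adjusted p = 0.0102) and the apoptosis inhibitor gene Birc3 (0.75, adjusted p = 0.0248), were called higher, as was 1 MYC list gene, the transferrin receptor gene Tfrc (0.84, adjusted p = 0.0109), which the erythroid list also holds. In the same fit the ERK feedback list held 1 rise, that of Ccnd1 (1.13, adjusted p = 0.0412), in place of Ier3, and without CTL replicate 2 it held that of the phosphatase gene Dusp6 (0.46, adjusted p = 0.0487). These members are named after their values were seen.

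Interferon response genes held 3 rises and 0 falls among 27 (11.1% called, next to 2.33% of all genes, median 0.15). Ifit3, which binds and retains viral RNA, read 6.44, 6.51 and 6.33 in CTL and 7.13, 7.17 and 7.19 in IDH1wt and rose by 0.74 ± 0.13 (adjusted p = 0.0159). Rsad2, the antiviral enzyme viperin, rose by 0.57 ± 0.11 (adjusted p = 0.0208) and Ifit2 by 0.44 ± 0.09 (adjusted p = 0.025). The arrays of the groups did not overlap in these 3 genes, as in every called gene, and their calls were lost in most fits that left out 1 array. The differences themselves changed little across those fits. They were 0.69 to 0.78 for Ifit3, 0.51 to 0.62 for Rsad2 and 0.42 to 0.47 for Ifit2. Ifit3 and Rsad2 were no longer called without CTL replicate 1, CTL replicate 3, IDH1wt replicate 2 or IDH1wt replicate 3 (0.0555 to 0.0738 and 0.0763 to 0.0938), and Ifit2 without any array other than IDH1wt replicate 1 (0.0674 to 0.125). The list held 0 calls in each of those first 4 fits.

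**Figure D4:**
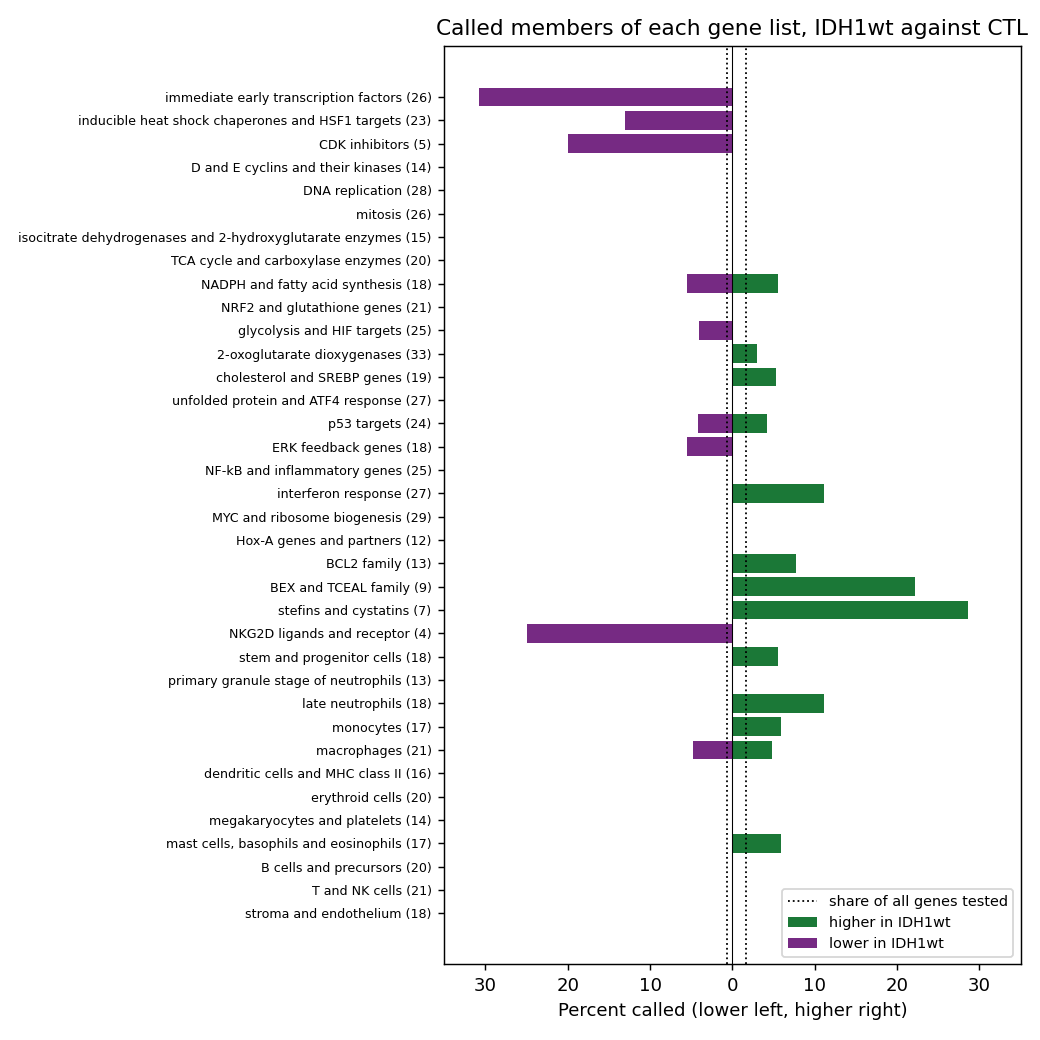
For each gene list, the share of measured members called higher or lower in IDH1wt against CTL, with the share over all 17731 genes (1.62% higher, 0.711% lower) as dotted lines; the number of measured members is in brackets. The immediate early list holds 8 of 26 lower, while cell cycle and TCA cycle lists hold no called member. The lists were chosen with earlier results of these data known, so their shares are a description only.

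Myeloid marker lists had medians near 0. Shares called were 0% of primary granule, 11.1% of late neutrophil, 5.88% of monocyte and 5.56% of stem and progenitor genes. The share over all genes was 2.33%, and each of these lists held at most 2 called members. Of 13 primary granule genes 0 were called in limma (0 higher and 4 lower unadjusted, median -0.06); the protease gene Elane read 11.51, 11.19 and 11.45 in CTL and 11.13, 11.10 and 10.98 in IDH1wt (-0.31 ± 0.11, adjusted p = 0.185). Of 18 late neutrophil genes 2 rose and the median was 0.00. Olfm4, a granule protein of a neutrophil subset, rose by 0.83 ± 0.15 (adjusted p = 0.0179) and was no longer called without CTL replicate 1 (0.0865) or 3 (0.0729), or without IDH1wt replicate 2 (0.0607) or 3 (0.0696). The collagenase gene Mmp8 rose by 0.64 ± 0.14 (adjusted p = 0.0378) and lost its call without any array other than CTL replicate 2 (0.0731 to 0.16). Of 17 monocyte genes 1 rose (median 0.10), the Fc receptor gene Fcgr1, by 0.74 ± 0.12 (adjusted p = 0.0101, and 0.0544 without CTL replicate 1). Of 18 stem and progenitor genes 1 rose (median -0.01), the transcription factor Tal1, by 0.72 ± 0.13 (adjusted p = 0.0179), and it lost its call without any array other than IDH1wt replicate 1 (0.0591 to 0.0688). The pan-leukocyte gene Ptprc differed by 0.14 ± 0.21 (adjusted p = 0.778).

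Other lineages were measured too, since GFP-positive marrow can hold any cell that grew from an infected one. Of 21 macrophage genes 1 rose and 1 fell (9.52% called, next to 2.33% of all genes, median 0.19). The iron exporter Slc40a1 rose by 0.59 ± 0.11 (adjusted p = 0.0229), a call lost without CTL replicate 1, CTL replicate 3, IDH1wt replicate 2 or IDH1wt replicate 3 (0.0729 to 0.115), and the adhesion molecule Vcam1 fell by 0.61 ± 0.12 (adjusted p = 0.0212), a call lost without any array other than CTL replicate 2 (0.05 to 0.108). In limma 0 of 16 dendritic cell and MHC class II genes (4 higher and 0 lower unadjusted, median 0.14), 0 of 14 megakaryocyte genes (4 and 0, median 0.14), 0 of 20 B cell genes (1 and 0, median -0.24), 0 of 21 T and NK cell genes (1 and 2, median -0.12), 0 of 18 stroma genes (3 and 1, median -0.04) and 0 of 4 sex-linked genes (0 and 0) passed. B cell genes lay below 0 for 18 of 20 members, and the arrays of a group differed from each other. Relative to each gene's mean over the 6 arrays the list's medians were -0.18, 0.93 and -0.17 on the CTL arrays and -0.69, 0.25 and -0.05 on the IDH1wt arrays, so CTL replicate 2 alone was high, and without it the list's median difference was 0.10. In bulk RNA, a change in the number of cells of a type and a change in RNA per cell cannot be told apart.

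Erythroid genes showed the widest split within IDH1wt; Klf1 and Gata1 are named after their values were seen. The list's median deviation was -0.20, -0.32 and -0.12 on CTL replicates 1, 2 and 3 and -0.65, 0.98 and 0.38 on IDH1wt replicates 1, 2 and 3. IDH1wt replicate 1 thus lay below every CTL array and the other IDH1wt arrays above. Slc4a1, the band 3 anion exchanger of red cells, read 7.60, 7.24 and 7.68 in CTL and 7.20, 9.27 and 8.60 in IDH1wt, and Klf1, the erythroid transcription factor, 7.89, 7.59 and 7.90 against 7.19, 9.09 and 8.47. Ermap and Gata1 had the same order, at 6.71, 9.0 and 8.34 and at 6.08, 7.66 and 7.20 on the IDH1wt arrays. With all arrays 0 of 20 measured erythroid genes were called (6 higher and 1 lower unadjusted) at a median of 0.50. Without IDH1wt replicate 1, 11 of 20 were called higher at a median of 0.95, among them Kel (1.54, adjusted p = 0.00193), Ermap (1.47, adjusted p = 0.00325), Slc4a1 (1.42, adjusted p = 0.00896) and Gata1 (0.95, adjusted p = 0.011). Without IDH1wt replicate 2 none was called and the median was 0.13. Replicate 1 was picked out by these same genes, so larger differences without it were bound to follow and are a description only. The fit without replicate 1 called 570 of all 17731 genes, 399 of them higher.

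The list of mast cell, basophil and eosinophil genes followed the same array order, with medians of -0.06, -0.18 and -0.10 in CTL and -0.13, 0.39 and 0.18 in IDH1wt. Of 17 members 1 rose (5.88% called, next to 2.33% of all genes), with 6 higher and 1 lower unadjusted and a median of 0.17. The chymase Cma1 rose by 0.64 ± 0.14 (adjusted p = 0.0418) and lost its call without any array other than IDH1wt replicate 1 (0.106 to 0.153). Mcpt8, the basophil protease, read 9.39, 9.80 and 9.42 in CTL and 9.79, 11.65 and 11.08 in IDH1wt. Its groups overlapped through IDH1wt replicate 1 and CTL replicate 2, and it did not pass (1.30 ± 0.36, adjusted p = 0.0913). Without IDH1wt replicate 1 it was higher by 1.83 (adjusted p = 0.00208). Without CTL replicate 2 the difference was 1.43 and did not pass (adjusted p = 0.136). The immediate early list had the same order within IDH1wt, with medians of 0.14, 0.14 and 0.10 in CTL and -0.25, 0.02 and -0.07 in IDH1wt, but there all 3 IDH1wt arrays lay below the CTL arrays. Hspa1a, Hspa1b and Hspa8 stayed called without any 1 array.

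Other lists also counted differently without the arrays that stood apart, and the members newly called are named after their values were seen. Over all genes the fit without IDH1wt replicate 1 called 570 and that without CTL replicate 2 called 299, next to 414 on all arrays. Without IDH1wt replicate 1, 3 of 17 monocyte genes were called higher, Fcgr1 with Treml4 (1.21, adjusted p = 0.00767) and Nr4a1 (0.66, adjusted p = 0.0222), the last of which is also the 1 higher member of the immediate early list there. The mast cell, basophil and eosinophil list then held 3 rises, those of Cma1, Mcpt8 and the lipoxygenase gene Alox15 (1.30, adjusted p = 0.0168). Single members of 3 lists with 0 calls on all arrays were called higher: the integrin gene Itgax among dendritic cell genes (0.94, adjusted p = 0.0222), the collagen gene Col1a2 among stroma genes (1.61, adjusted p = 0.00186) and the mTOR inhibitor gene Ddit4 in the unfolded protein and ATF4 response (1.02, adjusted p = 0.0347). Among cholesterol genes Fdps, a synthase of the mevalonate pathway, was called lower (-0.46, adjusted p = 0.0459) beside the rise of Sqle. In that fit Mmp8, Vcam1, Tceal8 and Ier3 were not called. Without CTL replicate 2, Ifit2, Bcl2, Tal1, Cma1, Tceal8 and Ier3 were not called, and the late neutrophil list held 3 rises, Olfm4 and Mmp8 with the formyl peptide receptor gene Fpr2 (0.47, adjusted p = 0.0474). The part of erythroid or basophil RNA in the rises and falls of single genes was not tested.

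**Figure D5:**
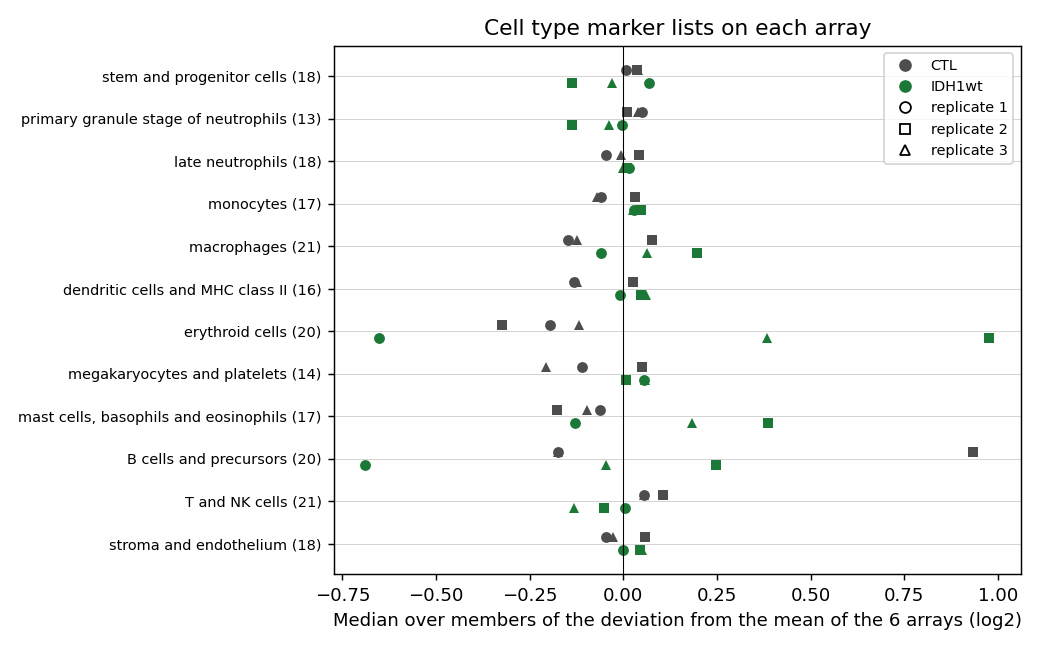
Median deviation of each marker list on each CTL and IDH1wt array (log2; colour gives the group, shape the replicate, relative to each gene's mean over the 6 arrays). Erythroid genes separate IDH1wt replicate 1 (-0.65) from replicates 2 (0.98) and 3 (0.38), and B cell genes are high on CTL replicate 2 (0.93).

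The IDH1mut arrays served to ask which of these genes differed between the IDH1 vectors. IDH1mut differed from IDH1wt in 2363 genes (13.3%). That test uses the same IDH1wt arrays on which the genes here were picked, so its counts over them are a description. Of the 20 largest rises 12 differed, all lower in IDH1mut. Stfa3 read 7.44, 7.34 and 7.43 on the IDH1mut arrays, a difference from IDH1wt of -3.70 (adjusted p = 2.1e-06), and below every CTL array. Il17re read 5.67, 6.19 and 5.70 (difference -2.97, adjusted p = 0.000935), near the CTL arrays. Ugt8a, Pls3 and Perp had the same pattern, with differences of -2.09, -1.89 and -1.85 (adjusted p = 0.00209, 0.000376 and 3.2e-05). Cela1 lay between, at 8.90, 9.24 and 8.63 (difference -1.33, adjusted p = 0.0162). Acss2 was lower as well (-1.36, adjusted p = 0.000381).

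Other rises did not differ detectably between the IDH1 vectors. Lrmda read 7.82, 8.10 and 7.35 on the IDH1mut arrays (difference -0.48, adjusted p = 0.094), Erdr1 8.43, 8.94 and 8.91 (-0.39, adjusted p = 0.111) and Slc15a2 7.88, 7.69 and 7.83 (0.67, adjusted p = 0.125). Bex1 was too spread to compare, at 4.50, 6.88 and 5.77 (adjusted p = 0.908). Of the 20 largest falls 9 differed, 7 higher and 2 lower in IDH1mut. Hspa1b read 6.22, 5.48 and 6.35, which was 1.52 higher than in IDH1wt (adjusted p = 0.00572) and still below every CTL array, and Hspa8 was 0.80 higher (adjusted p = 0.00288). H60c read 5.53, 5.41 and 5.77, within the range of the CTL arrays, and was 2.23 higher (adjusted p = 0.000199). Wdfy1, Myl10 and Aoc1 were 1.11, 1.43 and 0.84 higher (adjusted p = 0.00143, 0.00574 and 0.00765) and lay between the other groups or, for Myl10, overlapped CTL. Jun was lower still, at 7.57, 7.01 and 6.90 (difference -0.78, adjusted p = 0.00796), and so was Dsp, at 3.84, 5.06 and 5.02 (difference -1.33, adjusted p = 0.0323). Eya1, Fosb, Egr1, Pde4d and Ptprg differed by 0.25, 0.33, -0.03, -0.05 and 0.15 (adjusted p = 0.359 to 0.944). Zfp36 read 10.65, 10.25 and 10.45, 0.61 above IDH1wt (adjusted p = 0.00489).

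Granule genes, of which 2 late neutrophil members were called in IDH1wt against CTL, and Cdkn2a, which was not called there, did differ between the IDH1 vectors. Of 18 late neutrophil genes 13 were higher in IDH1mut than in IDH1wt (median 0.54), and of 13 primary granule genes 9 were lower and 1 higher (median -0.64). Elane differed by -0.83 (adjusted p = 0.000891). Cdkn2a read 4.10, 3.89 and 3.91 in IDH1mut, a difference of -1.73 from IDH1wt (adjusted p = 0.000506), and Idh2 read 8.60, 8.57 and 8.60 (difference -0.47, adjusted p = 0.00814). Nnt, by contrast, read 8.75, 8.65 and 9.11, and its difference from IDH1wt was 0.10 (adjusted p = 0.687).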

How the data were processed

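RNA of each sample, 3 µg, was hybridised to its own Affymetrix mouse array, 9 in all. The deposited values are log2 expression values per probe set. RMA is named per the submitters' processing notes, without a version; it subtracts background, makes the arrays' distributions equal and combines probes into probe sets. Of 20877 deposited probe sets, 17815 carried 1 gene symbol, 244 several and 2818 none in the platform annotation, and only the first kind was used. Where a gene had several, the brightest by mean over all 9 arrays stood for it, which left 17731 genes, 17649 of them with 1 probe set. The RefSeq gene table of GRCm38.p6 held 17584 of them.

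With limma 3.58.1 (R 4.3.3), group means were estimated from all 9 arrays together. The moderated contrasts IDH1wt minus CTL and IDH1mut minus IDH1wt were tested two-sided, with Benjamini-Hochberg adjustment over all genes and a threshold of 0.05. "Rose" and "fell" mark genes past it, and adjusted p-values come from this fit or, where an array is said to be left out, from the same fit without it. With 3 arrays a group, an exact permutation test cannot go below p = 0.1. The procedure was tested on simulated data.

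The members, gene lists and tests were chosen with earlier results of these data known, and lists are described by counts and medians only. Genes named are the 20 largest rises and 20 largest falls among called genes whose groups do not overlap (clone-like symbols left out), up to 6 members of every list, called members first, and Idh1, Idh2, Hoxa9, Meis1, Cdkn2a, Cdkn2b, Cdkn1a, Nnt and Ptprc; others are said to be named after their values were seen. Alternatives were averaging all probe sets of a gene, brighter genes only, repeated quantile normalisation, centred arrays, the 6 arrays alone, an intensity trend with robust variances, array weights, no moderation, the replicate number as a block, and leaving out each array.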

Additional observations from a re-analysis of the deposited data

How the results depend on the processing

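Counts of called genes moved across the alternatives. Of the 414 called genes 0 changed sign, but this result was largely fixed in advance. The groups of all 414 do not overlap, so leaving out an array could not turn a sign. Several other alternatives kept the same group means. An intensity trend with robust variances called 717 genes (497 higher, 220 lower), array weights 1226 (714 and 512) and no moderation 58 (34 and 24, with 24 at least 2-fold). Of the 75 called genes that the text names, 50 kept their call without any 1 array and 23 under every alternative that tested them. Without moderation Bex1 (adjusted p = 0.122), Il17re (0.0831), Cela1 (0.0586), H60c (0.0586) and Fos (0.131) were among those not called. Restricting to brighter genes left 54 at least 2-fold. The 6 arrays alone, without IDH1mut in the spread, called 470 genes (339 higher, 131 lower), 342 of them among the 414. Leaving out each array in turn gave 132 to 570 calls, 90 to 399 higher, 41 to 171 lower and 60 to 150 at least 2-fold. The share that rose was 58.2% with array weights and 58.6% without moderation, and 67.4% and 75.6% with repeated quantile normalisation and with centred arrays. Replicate numbers did not pair the arrays (correlations of same-numbered deviations 0.0257, 0.011 and -0.0857); the replicate block called 314 genes, 283 of them among the 414. Leaving out single arrays turned the sign of 3 genes that the text names and that were not called: Hoxa9 went from -0.015 to 0.24, Meis1 from -0.079 to 0.082 and Ptprc from -0.079 to 0.34. Level on the arrays limits low genes: RMA values near the floor have compressed differences, and 3 arrays per group limit all of them. The cause of these shifts was not tested.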

Other observations

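The genes in these paragraphs were chosen after their values were seen. Tfpi, the inhibitor of the tissue factor pathway of clotting, read 5.41, 5.66 and 5.50 in CTL and 4.27, 3.91 and 4.15 in IDH1wt and fell by 1.41 ± 0.11 (adjusted p = 0.000117). Pax6, a homeobox factor of eye and brain, fell by 1.25 ± 0.15 (adjusted p = 0.00149) and Mtus2 fell by 1.37 ± 0.19 (adjusted p = 0.00434). Malat1, an abundant nuclear noncoding RNA, read 9.12, 9.01 and 9.18 against 8.07, 8.10 and 8.28 and fell by 0.95 ± 0.11 (adjusted p = 0.00136). Rhob, a GTPase gene with immediate early kinetics, fell by 0.90 ± 0.11 (adjusted p = 0.00149) and Ets1, a transcription factor of blood cells, fell by 0.77 ± 0.12 (adjusted p = 0.00717). Among rises, Sfmbt2, a Polycomb-group gene, was tight in both groups, with 4.72, 4.79 and 4.74 in CTL and 6.07, 6.07 and 5.91 in IDH1wt, and rose by 1.27 ± 0.09 (adjusted p = 3.21e-05). It was 0.93 higher again in IDH1mut than in IDH1wt (adjusted p = 0.000173). Marchf7, a ubiquitin ligase, rose by 1.23 ± 0.11 (adjusted p = 0.000273) and Ptprj, a receptor phosphatase, by 1.26 ± 0.18 (adjusted p = 0.00551).

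Called genes sometimes lay side by side. Among 16222 measured protein-coding genes in chromosome order, 21 neighbouring pairs were both called, 13 in the same direction and 8 in opposite directions. Since 69.6% of all called genes rose, many pairs would share a direction wherever they lie. Whether these counts exceed those for genes at other positions was not tested. Pairs that moved together included Hspa1b with Hspa1a, Stfa2l1 with Stfa3, Tceal8 with Bex1, Itih5 with Sfmbt2, and the interferon genes Ifit2, Ifit3 and Ifit1bl1. Aoc1, Mtus2 and Tctex1d1, by contrast, each fell next to a gene that rose. Itih5, which encodes a matrix protein, rose by 0.55 ± 0.10 (adjusted p = 0.0189), a call lost without CTL replicate 1, CTL replicate 3, IDH1wt replicate 2 or IDH1wt replicate 3 (0.06 to 0.0941). Ifit1bl1 rose by 0.69 ± 0.10 (adjusted p = 0.00708). Whether neighbours share control, a vector insertion or probe signal was not tested.

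Nnt and Tmem267 both lie on chromosome 13 and separated the arrays cleanly. Tmem267 read 4.01, 4.32 and 4.24 in CTL, 6.16, 5.81 and 5.75 in IDH1wt and 5.40, 5.60 and 5.35 in IDH1mut. Nnt read 9.73 to 9.95 in CTL, 8.69 to 8.79 in IDH1wt and 8.65 to 9.11 in IDH1mut, so that on both IDH1 vectors the levels lay on the same side of CTL. As background, C57BL/6J mice carry a deletion within Nnt that other C57BL/6 substrains lack. The labels give 1 strain name for all samples, and whether substrain differs between the groups was not tested.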
